A study of Zea mays with 303 samples.

Results

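ANT1 and ANT2 encode mitochondrial ADP/ATP carriers, and their transcripts were followed across single cells of maize anthers. The pair was chosen by name, as the rows ANT1 and ANT2 of the deposited count table, so 2 of its 17140 features are described. The RefSeq gene table holds 1 entry for each and gives MANT1 and MANT2 as further names. ADP/ATP carriers sit in the inner mitochondrial membrane, where they bring ADP in and send newly made ATP out to the cytosol, so that respiration can feed the rest of the cell. They are nuclear genes whose proteins are imported, and plants commonly keep more than 1 copy. In anthers the tapetum and the meiotic cells are known for many mitochondria, and mitochondrial defects are a classical cause of male sterility in maize.

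All cells belonged to 1 group, and what they share is the inbred line W23 with its bz2 allele, a mutation of the anthocyanin gene Bronze2. The anthers were at an early meiotic stage, were fixed in Farmer's solution and digested with wall-degrading enzymes, and single cells were sorted on either of a pair of instruments. Each sample was 1 cell, and its title carried a library index, by which pools 6, 11, 28 and 29 held 55, 78, 79 and 91 cells. No plant, treatment or cell type was labelled, so cells are not replicates, no test between groups was possible, and the intervals below cover counting error only.

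A UMI (unique molecular identifier) marks 1 captured transcript copy. Cells held at most 9934 UMIs, with a median of 1780, and pool medians ran from 1162 in pool 28 to 2942 in pool 6. Of the 96 barcode numbers, 91 occurred in 2 or more pools and 44 in all 4 pools. Of the markers listed for anther cell types, RAD51B, a relative of the meiotic recombinase, had 6 UMIs, no tapetum symbol was found, and CR4, a receptor kinase of epidermal cells, had 12 UMIs. Of 5 photosynthesis symbols listed for the endothecium, an outer layer of the anther wall, 4 were found (CAB1, PSAH, RCA1 and RBCS), with 1300 UMIs together. Symbols were missing for most features, so most listed markers could not be looked up.

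ANT1 was the more abundant of the pair. It had 508 UMIs over all cells, a level of 635 CPM (95% interval 581 to 693), where CPM is UMIs per 1000000 UMIs of all features. ANT2 stood at 286.2 CPM (250.3 to 326). By UMIs ANT1 ranked 23 and ANT2 44 among the features with a symbol, and ANT2 ranked 392 among all features. The ratio of ANT2 to ANT1 UMIs was 0.451 (0.384 to 0.528). CEL-Seq2 counts transcript ends, so length does not enter this ratio as it does for reads, but capture may differ between the transcripts.

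Most cells held few copies. ANT1 had from 0 to 17 UMIs in a cell, with a median of 1. It had none in 110 cells, 1 in 72, 2 to 4 in 89 and 5 or more in 32. ANT2 had from 0 to 9 UMIs with a median of 0, with 1 in 66 cells, 2 to 4 in 37, 5 or more in 12 and none in the rest. At least 1 UMI of ANT1 was thus seen in 63.7% of cells (58.0% to 69.1%) and of ANT2 in 38.0% (32.5% to 43.7%). Cells with a UMI of ANT1 had a median depth of 2728 UMIs and those without one of 948.5, and for ANT2 the medians were 3195 and 1335. Cells without a UMI were thus the shallower ones for both genes. No cell kind is known to lack these carriers, so no share of free RNA can be set beside these values.

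When each cell was thinned to 1000 UMIs, 42, 65, 43 and 66 cells remained in pools 6, 11, 28 and 29, and 13, 13, 36 and 25 were too shallow. ANT1 was then seen in 45.9% of cells, against 75.5% of the same cells before thinning. ANT2 was seen in 21.5%, against 45.8%. The mean thinned cell held 0.650 UMIs of ANT1 and 0.268 of ANT2, below 1 copy, so thinned values are not used to compare pools.

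**Figure D1:**
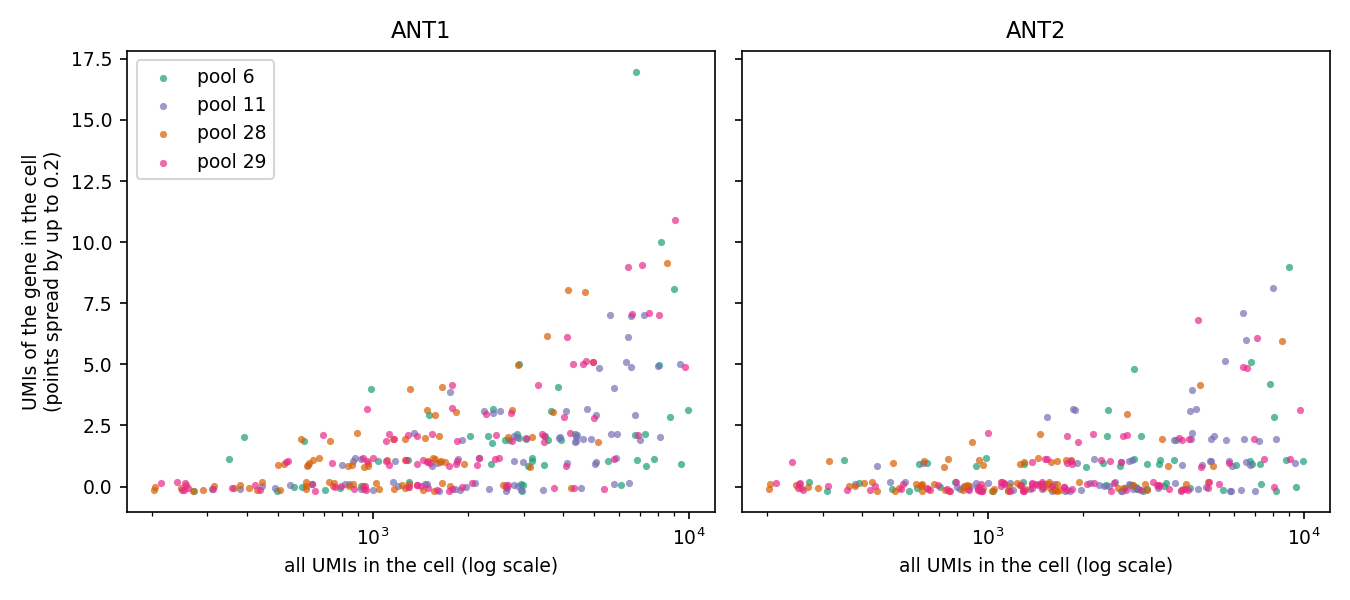
UMIs of ANT1 (left) and ANT2 (right) in each cell against all UMIs of the cell on a log scale, coloured by pool. The copies rise with depth for both genes, and the highest cell has 17 UMIs of ANT1 and lies in pool 6.

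Pool levels ranged more widely for ANT1 than for ANT2. ANT1 stood at 583 CPM (481 to 701) in pool 6. In pool 11 it stood at 487 CPM (407 to 579). Pools 28 and 29 were higher, at 877 CPM (718 to 1062) and 726 CPM (618 to 847). The interval of pool 11 lay below those of both pools 28 and 29, and that of pool 6 lay below that of pool 28, while pools 6 and 11 overlapped, as did pools 28 and 29. With the 20 most abundant features left out of the totals, the interval of pool 11 (526 to 749 CPM) still lay below that of pool 28 (802 to 1186 CPM). Under that scaling it overlapped with that of pool 29 (688 to 943 CPM), and pool 6 (605 to 883 CPM) overlapped with pool 28.

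Single cells held from 0 to 17, 7, 9 and 11 UMIs of ANT1 in pools 6, 11, 28 and 29, with medians of 2, 1, 1 and 1. The pool with the lowest median depth, pool 28, had the highest summed level, while its median of 1 UMI equalled that of pools 11 and 29.

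ANT2 stood at 283.9 CPM (213.9 to 370) in pool 6 and 298.3 CPM (236.1 to 372) in pool 11. It stood at 292.4 CPM (203.7 to 407) in pool 28 and 270.4 CPM (206.3 to 348) in pool 29. These 4 levels came from 55, 79, 35 and 60 UMIs, and all intervals overlapped. Single cells held at most 9, 8, 6 and 7 UMIs of ANT2 in pools 6, 11, 28 and 29, with a median of 1 in pool 6 and 0 in the other pools. The lowest and highest ends of these intervals were 203.7 and 407 CPM, and the smallest difference detectable at this depth was not computed.

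Among the 479 features with at least 200 UMIs, the highest pool level was a median of 1.97 times the lowest. For ANT1 this ratio was 1.80, and 39.2% of the features had a smaller one. For ANT2 it was 1.10, and 1 feature had a smaller one. The evenness of ANT2 depended on the scaling: with the 20 most abundant features left out of the totals its ratio was 1.28, and 51 features had a smaller one, while that of ANT1 was 1.55. Without 25 listed plastid-encoded features in the totals the ratios were 1.13 for ANT2 and 1.75 for ANT1.

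The balance of the pair does not depend on the scaling, since both genes share the same totals. ANT2 to ANT1 stood at 0.487 (0.346 to 0.678) in pool 6 and 0.612 (0.457 to 0.817) in pool 11. It stood at 0.333 (0.221 to 0.493) in pool 28 and 0.373 (0.272 to 0.504) in pool 29. Pools 6 and 11 together had a ratio of 0.554 (0.445 to 0.687), and pools 28 and 29 together 0.357 (0.280 to 0.453). The grouping of pools was made after the values were seen, the joint intervals overlapped slightly, and neighbouring pools did not differ beyond their intervals.

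**Figure D2:**
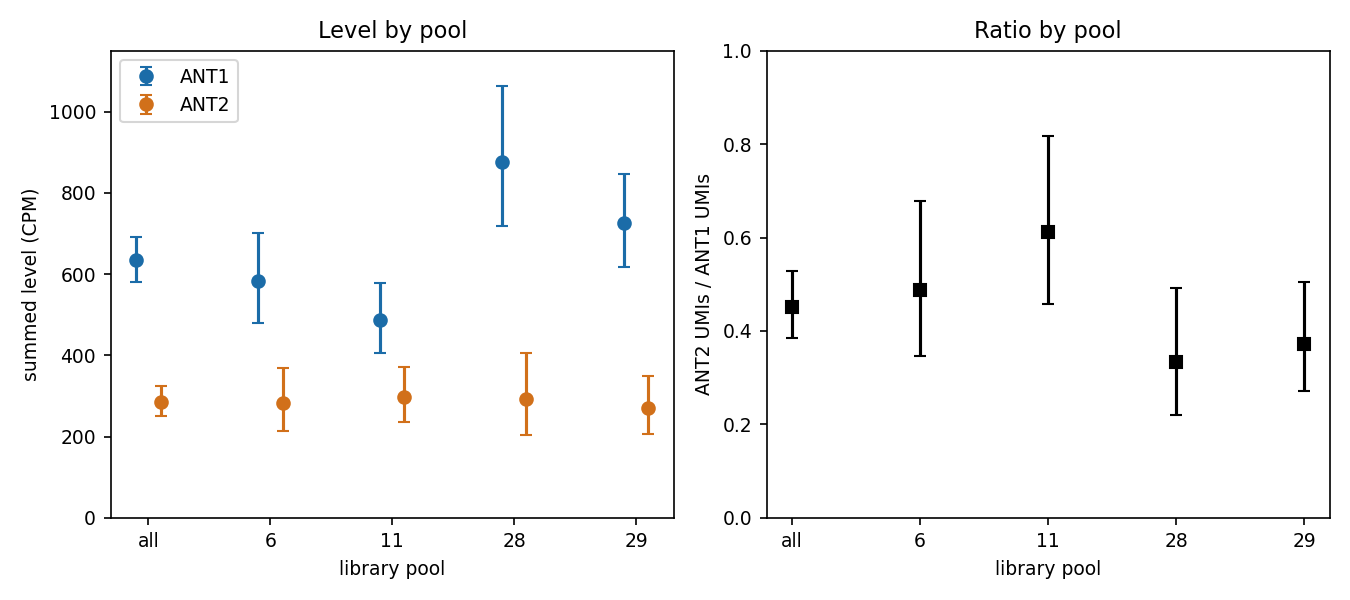
Left, summed levels of ANT1 and ANT2 in CPM over all cells and by pool. Right, the ratio of ANT2 to ANT1 UMIs, with bars in both panels for exact 95% intervals of counting error. ANT1 runs from 487 to 877 CPM while ANT2 stays between 270.4 and 298.3 CPM, so the ratio is lowest in pool 28, at 0.333.

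What else moved with the pools is given by their contents. The 25 features listed as plastid-encoded took 3.87% and 4.47% of UMIs in pools 6 and 11 and 1.78% and 2.20% in pools 28 and 29. Their part in the ANT1 difference was tested only by leaving them out of the totals. Among the cells that were not rich in GAPC3, C2 or nuclear photosynthesis transcripts, as defined below, 39, 50, 56 and 64 by pool, ANT1 stood at 433, 490.2, 898 and 774 CPM in pools 6, 11, 28 and 29. ANT2 stood at 220.8, 300.4, 279.2 and 260.4 CPM in these cells. The order of the pools for ANT1 thus differed only in that pool 6 fell below pool 11. Anthers, dates and sorters of the pools were not labelled and cannot be told apart from the pool.

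Within pool 6 the levels differed with depth. In that pool, cells below the median depth had ANT1 at 967 CPM (681 to 1333) and cells at or above it had 489 CPM (385 to 612). ANT2 in the same cells stood at 523 CPM (319 to 807) and 225.1 CPM (156.8 to 313). In pools 11, 28 and 29 the intervals of shallower and deeper cells overlapped for each gene, with ANT1 at 495 against 485, 732 against 915 and 724 against 726 CPM. The largest of these gaps as a ratio was that of ANT2 in pool 29, at 144.8 CPM (53.1 to 315) in shallower and 299.2 CPM (224.8 to 390) in deeper cells. Barcodes 1 to 48, which marked deeper cells, and barcodes 49 to 96 gave 626 and 649 CPM of ANT1 and 299.99 and 263.6 CPM of ANT2.

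The pair was spread over many cells. The 30 cells with most ANT1 held 41.1% of its UMIs and 24.5% of all UMIs. The 30 cells with most ANT2 held 54.6% of its UMIs and 21.5% of all UMIs. Around the level of the pool and the depth of the cell, the squared deviation per UMI, which is close to 1 under counting error alone, was 1.67 for ANT1 and 1.97 for ANT2. The median of the 479 features was 2.18, and 38.6% and 47.0% of them had a smaller value. Neither carrier thus stood out by its spread between cells.

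Both transcripts were often seen in 1 cell. A UMI of each was present in 93 cells, ANT1 alone in 100, ANT2 alone in 22 and neither in 88. The median depths of these sets were 3936, 1718, 1603 and 894 UMIs. Cells with both were the deepest and cells with neither the shallowest, so the counts alone do not show that the genes are used together. Per UMI, ANT1 stood at 691 CPM (615 to 773) in cells with an ANT2 UMI and at 567 CPM (491 to 650) in the others. ANT2 stood at 309.9 CPM (268.3 to 356) in cells with an ANT1 UMI and at 189.96 CPM (128.2 to 271.2) in the others. Each gene was higher beside the other, and the intervals overlapped.

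Across the cells of a pool, ANT1 and ANT2 had a weak positive likeness. Pearson's r was computed on log2 values of UMIs scaled to 2363, the median total, plus 1, with the linear effect of depth removed, in cells with at least 500 features, of which pools 6, 11, 28 and 29 held 48, 70, 60 and 79. It was 0.361, 0.1883, 0.1639 and 0.071 in these pools. Of all features with at least 50 UMIs, 4.61%, 16.7%, 15.1% and 33.0% were more like ANT1 than ANT2 was in these pools. In sparse counts such values are small, and ANT2 was not the feature most like its paralogue in any pool.

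The balance of the pair in single cells rested on few UMIs. ANT2 outnumbered ANT1 in 33 cells, 34 cells held equal numbers above 0, and in the rest of the cells with a UMI of the pair ANT1 was the larger. In the 44 cells with 5 or more UMIs of the pair, ANT2 made up from 0% to 80.0% of them, with a median of 31.0%. ANT2 was the larger in 7 of these cells and absent in 8, and ANT1 was absent in none. The richest cell, in pool 6, had 17 UMIs of ANT1 and 5 of ANT2 among 6805. The next, also in pool 6, had 8 and 9 among 8944. With so few UMIs in a cell, the balance was not compared between single cells.

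**Figure D3:**
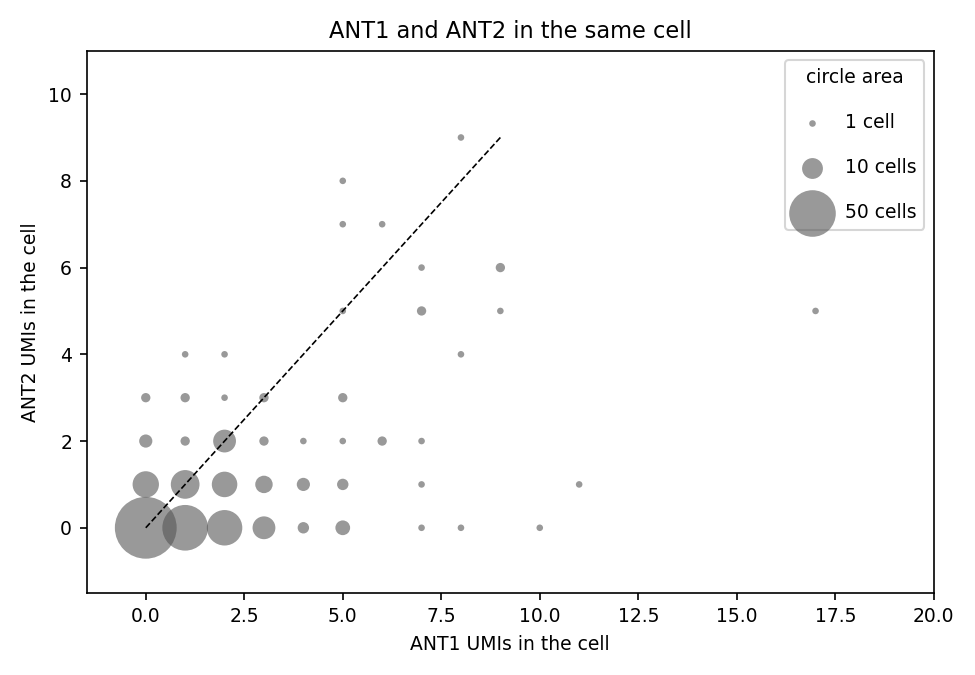
ANT2 UMIs against ANT1 UMIs in the same cell, with the area of a circle standing for the number of cells and the dashed line for equal numbers. More cells lie below the line than above it, where 33 cells lie, 93 cells hold both transcripts, and 88 hold neither.

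The next question was in which cells the carriers were high. With no labelled cell type, cells were sorted into ranges of other genes, which are not types. These ranges were chosen with earlier results of these data known. A GAPC3-rich cell had at least 1000 CPM of GAPC3, a cytosolic glyceraldehyde-3-phosphate dehydrogenase of glycolysis. A C2-rich cell had at least 2000 CPM of C2, chalcone synthase. A photosynthesis-rich cell had at least 2000 CPM of CAB1, RBCS and PSAH together, which encode a chlorophyll-binding protein, the small subunit of Rubisco and a subunit of photosystem I. At least 2 UMIs were required each time.

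The pair was highest in the 18 GAPC3-rich cells. ANT1 stood there at 1101 CPM (888 to 1348) against 579.9 CPM (525 to 638) in all other cells, a log2 ratio of 0.92 (0.58 to 1.25). ANT2 stood at 663 CPM (501 to 861) against 241.7 CPM (207.1 to 280.6), a log2 ratio of 1.46 (0.99 to 1.90). Single cells of this class held from 0 to 22 UMIs of the pair with a median of 9, and 2 of them held none. The direction was the same in each pool, with log2 ratios of the pair of 1.44, 1.28, 1.17 and 0.70 in pools 6, 11, 28 and 29. Pools 28 and 29 had 2 such cells each, and the interval of pool 29 included 0. Of the 10 cells with most UMIs of the pair, 6 were GAPC3-rich. The class was deep, with a median of 4950.5 UMIs against 1689 outside, and the part of depth was not tested.

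The ratio of ANT2 to ANT1 was 0.602 (0.424 to 0.848) in GAPC3-rich cells and 0.417 (0.347 to 0.499) outside. The intervals overlapped, so a change in balance was not resolved with 93 UMIs of ANT1 and 56 of ANT2 in the class.

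The pair was lowest in the 58 photosynthesis-rich cells. ANT1 stood at 394 CPM (311 to 493) against 712 CPM (647 to 783) elsewhere, a log2 ratio of -0.85 (-1.22 to -0.50). ANT2 stood at 148.5 CPM (99.5 to 213.3) against 331 CPM (286.4 to 379.7), a log2 ratio of -1.15 (-1.77 to -0.59). The pair was lower in each pool, with log2 ratios of -1.42, -1.07, -1.01 and -0.67 in pools 6, 11, 28 and 29, and each of these intervals lay below 0. Carrier transcripts were still present, with a UMI of the pair in 44 of the 58 cells at a median depth of 2207 UMIs. With the threshold doubled the class held 36 cells, and the log2 ratio of the pair was -0.45 (-0.85 to -0.07) in place of -0.94.

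The 21 C2-rich cells lay between. ANT1 stood at 806 CPM (612 to 1042) against 618 CPM, and ANT2 at 347 CPM (224.8 to 513) against 280.1 CPM. The log2 ratio of the pair was 0.36 (0.01 to 0.69), but 0.01 within pool 11, and its interval included 0 when pool 6 or pool 29 was left out (0.30 and 0.18) and when the threshold was halved or doubled (0.23 and 0.19). GAPC3-rich and C2-rich cells shared 2 cells, and C2-rich and photosynthesis-rich cells 1. In the cells in no class ANT1 stood at 632 CPM and ANT2 at 265.1 CPM. Over all pools the order of classes was the same for both genes, though C2-rich cells overlapped with cells in no class. The order did not hold in each pool. In C2-rich cells of pool 11, ANT1 stood at 634 CPM against 467 CPM in its other cells. ANT2 stood there at 158.4 CPM, on 5 UMIs, against 317.2 CPM. In pool 29 ANT1 stood at 1053 CPM in C2-rich and 927 CPM in GAPC3-rich cells.

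**Figure D4:**
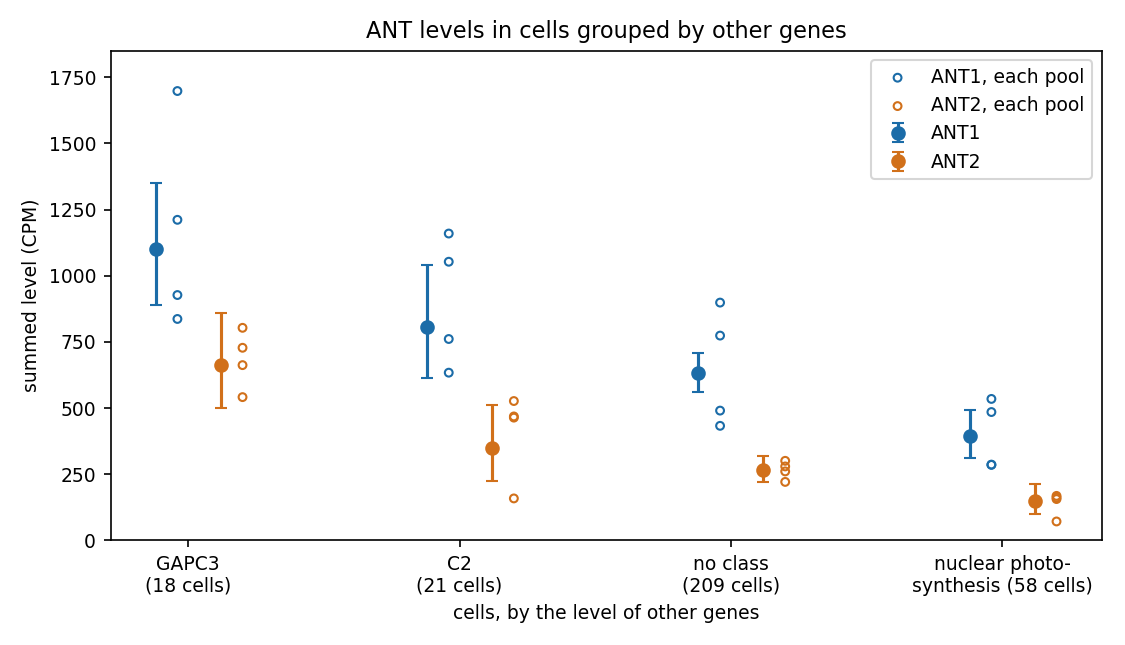
Summed levels of ANT1 and ANT2 in CPM in cells grouped by the level of other genes. Filled points show all pools with exact 95% intervals of counting error, and open points show each pool. Both genes are highest in the 18 GAPC3-rich cells, at 1101 and 663 CPM, and lowest in the 58 photosynthesis-rich cells, at 394 and 148.5 CPM.

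The carriers were also lower where plastid-encoded transcripts were abundant. Within each pool, cells were split into 3 nearly equal parts by the share of UMIs from 25 plastid-encoded features. ANT1 stood at 804 CPM (698 to 921), 694 CPM (597 to 802) and 423 CPM (350.1 to 506) from the lowest to the highest part. ANT2 stood at 409.5, 274.5 and 182.8 CPM (136.1 to 240.3 for the last). Over all pools both genes were lower at each step, and the intervals of the lowest and highest parts lay apart. Those of the lowest and middle parts overlapped for both genes. ANT1 was lower at each step within every pool too, as in pool 6, at 857, 561 and 334 CPM. Plastid transcripts themselves lower the CPM of all other genes. With the 25 features left out of the totals, ANT1 stood at 811, 706 and 455 CPM and ANT2 at 413, 279.2 and 196.6 CPM. Any plastid transcripts outside this list stayed in the totals, and the part of composition was not tested further. In pool 28 the steps were not clear. ANT1 stood there at 959, 864 and 817 CPM and ANT2 at 388.8, 242.9 and 249.7 CPM, with overlapping intervals. In pools 6 and 11 all photosynthesis-rich cells fell in the highest part, and in pools 28 and 29 most did. The lower levels in that class and in the highest part are thus not independent results. This split was added after the features below had been seen, and their r came from largely the same cells.

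Features that followed the pair were sought among all 3057 other features with at least 50 UMIs in these cells of at least 500 features. A feature was called a follower when its r with the summed level of ANT1 and ANT2 was at least 0.2 in each of the 4 pools. By this rule 24 features followed the pair, which is 0.785% of those searched, and 7 went against it with r at or below -0.2 in each pool, which is 0.229%. The values of r are descriptions across cells that share library, depth and composition, and carry no p. The medians of r over all features were 0.037, 0.045, 0.010 and 0.014 in pools 6, 11, 28 and 29. The last follower inside the limit had a lowest r of 0.2001 and the first outside of 0.1983, so the limit does not mark a gap.

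None of the 24 followers had a symbol, and the gene table used here gave none of them a name. Zm00001d052736 led, with r of 0.43, 0.42, 0.35 and 0.35 in pools 6, 11, 28 and 29. It stood at 862, 585 and 1161 CPM in pools 6, 11 and 28 and at 3867 CPM in pool 29, an increase that neither carrier showed. Zm00001d045706 came next, with r of 0.42, 0.35, 0.30 and 0.29, and its levels of 413, 385, 785 and 739 CPM ranked pools 28 and 29 above 6 and 11, as ANT1 did. Both features also followed ANT1 alone by the rule, but not ANT2 alone. With ANT2 the lowest r of Zm00001d052736 was 0.11, in pool 28, and that of Zm00001d045706 was 0.06, in pool 29. The followers had a median of 170 UMIs against 85 for all features searched, so well-counted features were more readily called.

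Taken singly the carriers had followers with none in common. ANT1 alone had 9 (0.294%) and ANT2 alone had 8 (0.262%), and 0 features were in both lists, 0% of each. Of the 24 followers of the pair, 8 followed ANT1 alone and 4 followed ANT2 alone. Features going against ANT1 alone numbered 5 (0.164%), and 0 (0%) went against ANT2 alone. ANT2 had fewer UMIs than ANT1, the part of this in the lists was not tested, and the lists do not show that the genes differ in what they follow.

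The named features that ranked highest fell short of the limit in at least 1 pool. SIP1-2, a small basic aquaporin, had r of 0.56, 0.26, 0.19 and 0.25 in pools 6, 11, 28 and 29. BIPE2, an HSP70 chaperone of the endoplasmic reticulum, had 0.38, 0.24, 0.33 and 0.17. GAPC3 had 0.48, 0.19, 0.22 and 0.13. C2 was steadier and lower, from 0.11 to 0.17. EZ1, a Polycomb histone methyltransferase, ranged from 0.06 to 0.38 and rested on 54 UMIs. SODCC.2, a cytosolic copper-zinc superoxide dismutase, ranged from 0.09 to 0.32, and the ribosomal protein gene RPS21 from 0.03 to 0.40. RPL17, also a ribosomal protein gene, reached 0.19, the aquaporin NIP1-1 reached 0.21, and ATPA, whose name fits more than 1 entry of the gene table, reached 0.048. Pool 6 gave the highest r for 7 of these 10 features. The ranking used the lowest r of each feature over the pools, which for these 10 came from pool 11, 28 or 29.

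Other mitochondrial genes could hardly be compared. Of 81 symbols listed as mitochondrial, including the genes of the mitochondrial genome, the table held ANT1, ANT2 and EFTS. EFTS, the mitochondrial elongation factor Ts, had 26 UMIs, or 32.5 CPM (21.2 to 47.6), too few to enter the search. A list of related carriers and adenylate enzymes held ANT1 and ANT2 alone. CPN60I and CPN60II, chaperonins that fold imported mitochondrial proteins, were added after the symbols were seen. CPN60I stood at 117.5 CPM (94.9 to 143.8) and had r with the pair of 0.25, 0.06, 0.00 and 0.13 in pools 6, 11, 28 and 29. CPN60II had 48 UMIs and was not searched. Transcripts of the carriers thus outnumbered those of the chaperonins, on a scale of transcript ends.

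Among glycolytic genes 4 of 31 listed symbols were found and 3 had enough UMIs. GAPC2, of the same family as GAPC3, had r of 0.10, 0.36, 0.12 and -0.19, with no steady sign. PPDK2, pyruvate orthophosphate dikinase, had negative values in every pool, from -0.24 to -0.03. PHI1, phosphohexose isomerase, had 30 UMIs. None of the 3, GAPC3 included, followed or went against the pair by the rule. Of all features searched 0.785% and 0.229% did, so with 3 features this says little about the list. GAPC3 was the only 1 of the 3 with r above 0 in all 4 pools, against 16.8% of all features searched.

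Plastid genes made up the named features that went against the pair. Both named ones among the 7 were plastid-encoded core antenna proteins of photosystem II. psbC had r of -0.41, -0.41, -0.28 and -0.32 and psbB of -0.24, -0.31, -0.39 and -0.22 in pools 6, 11, 28 and 29. Next came rpoB, a subunit of the plastid RNA polymerase, from -0.44 to -0.18, and atpI, a subunit of the plastid ATP synthase, from -0.32 to -0.16. The nuclear gene CAB1 followed, from -0.20 to -0.15. Of the 25 plastid-encoded features, 12 had r below 0 in all 4 pools, against 8.90% of all features searched, and 0 had r above 0 in all 4, against 16.8%. The exceptions included ndhF, which encodes part of the thylakoid NDH complex, at -0.15, -0.13, 0.18 and 0.12. CAB1, RBCS and PSAH were all below 0 in every pool.

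The other 5 features that went against the pair had no name, 3 with GRMZM and 2 with Zm00001d identifiers. GRMZM5G818111 had r of -0.47, -0.33, -0.32 and -0.34, and Zm00001d018163 of -0.26, -0.30, -0.40 and -0.26. Without the 3 cells that held most UMIs of the pair, psbC and GRMZM5G818111 were still called and psbB, Zm00001d018163 and the other 3 were not. Zm00001d052736 and Zm00001d045706 were still called without these cells, and with all cells, shallow ones included, neither was, nor were psbC and psbB, while GRMZM5G818111 was.

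**Figure D5:**
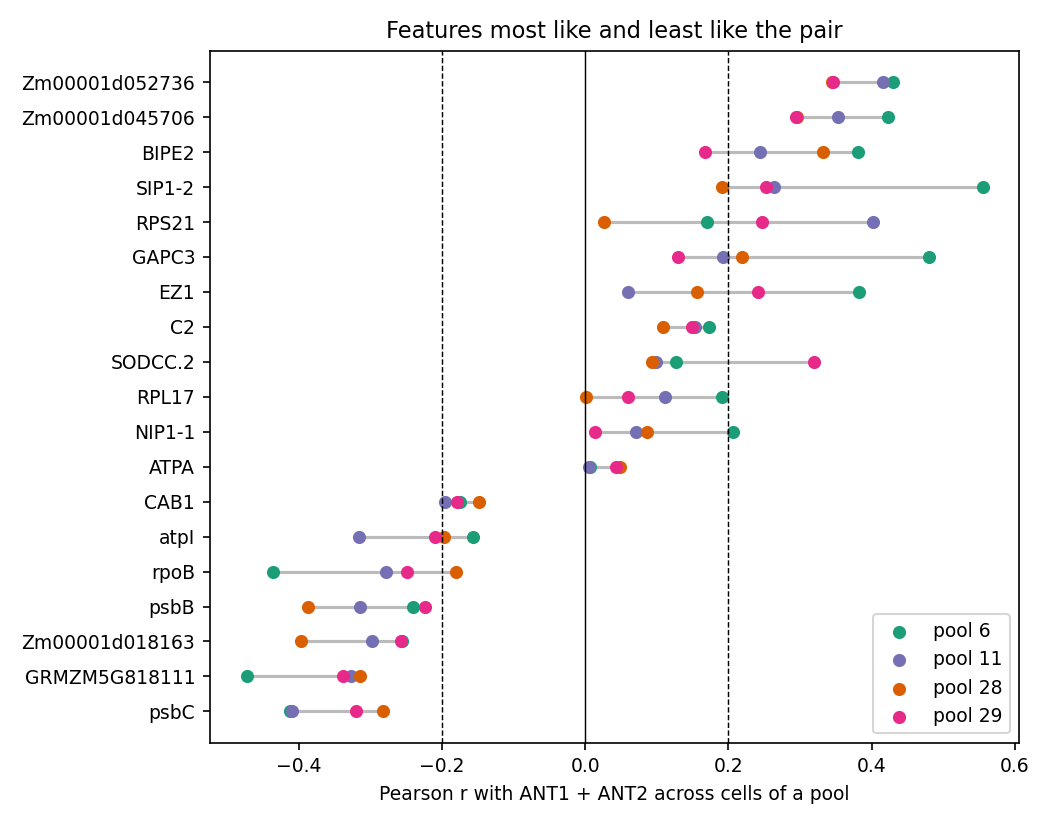
Pearson r across cells, within each pool, between the summed level of ANT1 and ANT2 and the features that ranked highest and lowest, with dashed lines at 0.2 and -0.2. Zm00001d052736 and Zm00001d045706 lie beyond 0.2 in every pool, and psbC, psbB, GRMZM5G818111 and Zm00001d018163 lie beyond -0.2 in every pool.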

How the data were processed

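The authors deposited raw UMI counts, whole numbers per feature and cell, from modified CEL-Seq2 libraries. Per the submitters' processing notes, HISAT2 was the aligner and the maize build was B73 RefGen_v4. The annotation, the UMI counter, any cell filter and the aligner's version are not given in the sources used here. If reads of the similar transcripts ANT1 and ANT2 were shared or dropped, their ratio would change, which could not be checked. The 303 cells had 203 to 9934 UMIs each, and a gene without a UMI in a cell is not shown to be absent there.

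UMIs were summed and divided by all UMIs (CPM). Intervals are exact at 95%, Poisson for CPM and Clopper-Pearson for shares, ratios and log2 ratios (scipy 1.17.1), and cover counting error only. Likeness was Pearson's r within each of the 4 pools on depth-corrected log2 values of the 257 cells with at least 500 features. The search was also run on simulated counts with counting error and a shared factor. Planted followers there were drawn from features with at least 200 UMIs. Recovery of followers with fewer UMIs, or with weaker likeness, was not tested. No doublet caller was run, so wells with more than 1 cell remain.

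The named features were all symbols past the limit, otherwise the 10 highest and 5 lowest with a symbol, 2 of each without, and listed genes. Members, lists and the classes of cells were chosen with earlier results of these data known. Alternatives changed the cells, scaling, measure of likeness, limits and class thresholds. No sequence of either gene is shown. RefSeq's gene table is on Zm-B73-REFERENCE-NAM-5.0, a different build, and served for names alone.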

Additional observations from a re-analysis of the deposited data

How the results depend on the processing

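Over all cells, 27 of 30 alternative values of the ANT1 and ANT2 levels and their ratio stayed within the reported interval. Leaving the 20 most abundant features out of the totals raised ANT1 to 764 CPM and ANT2 to 344 CPM, since fewer UMIs then form the total. With 1 pool left out, ANT1 ranged from 592 to 708 CPM, the highest without pool 11. Thinning to 1000 UMIs gave shares of 45.9% for ANT1, 21.5% for ANT2 and 11.3% for both.

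The numbers of followers depended most on the settings. As shares of the features searched, 0.785% followed the pair and 0.229% went against it. Pearson residuals of the counts gave 99 (3.24%) and 31 (1.01%), with 22 of the 24 and all 7 shared. A limit of 0.1 gave 4.19% and 47 (1.54%), and one of 0.3 gave 1 (0.0327%) each. All cells gave 6 (0.189%) and 3 (0.0947%), and totals without the 20 most abundant features gave 13 (0.425%) and 4 (0.131%). Searching features with at least 20 UMIs gave 26 (0.338%) and 7 (0.0909%) of 7697. Those against the pair fell to 3 (0.0981%) with the effect of depth kept and to 2 (0.0683%) without the 3 cells richest in the pair. ANT1 alone had 9 followers (0.294%), and ANT2 alone had 8 (0.262%), with 0 (0%) against it. With 1 pool left out, so that 3 pools had to pass, 1.01% to 1.83% followed and 0.262% to 0.556% went against. Of the class ratios, that of photosynthesis-rich cells moved to -0.45 with the threshold doubled. Apart from the settings named, the cause was not tested.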
